A study of Mus musculus with 1 sample.

Results

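Brd9 and 8 further genes of SWI/SNF chromatin remodelling complexes were followed through the progenitors of mouse bone marrow. The 9 genes are Brd9, Brd7, Bicra, Bicral, Ss18, Bcl7a, Bcl7b, Bcl7c and Actl6a, taken by symbol from the 32285 genes of 1 single-cell RNA-seq library, and each symbol matched 1 gene. The library holds lineage-negative, c-Kit-positive cells from the femora and tibiae of C57BL/6 mice that carry Brd9 fl/fl and no Cre transgene, so that the loxP-flanked gene is intact in every cell. Per the labels, mice had received pIpC, a double-stranded RNA that induces interferon, in 3 doses of 20 mg/kg starting in week 4. Cells were taken 8 weeks after pIpC. The labels name CD45.2 donors of the floxed genotype and CD45.1 recipients, while the study's methods describe sorted cells of control mice, and which of these applies to the library is not settled by the values. Neither the age nor the number of mice in the library is stated in the labels. With 1 library there is no replicate of any value below, and the intervals given cover counting error only.

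SWI/SNF complexes use the energy of ATP to slide or evict nucleosomes and come in 3 forms. Canonical BAF carries an ARID1 subunit, PBAF carries Pbrm1, Arid2 and Brd7, and non-canonical BAF, also called GBAF, carries Brd9 together with Bicra or its paralogue Bicral and lacks the ARID subunits. Brd9 reads acetylated lysines through its bromodomain, and Brd7 is its paralogue in PBAF. Ss18, the Bcl7 proteins and Actl6a, an actin-related protein, are shared between non-canonical and canonical BAF, and Actl6a and the Bcl7 proteins also enter PBAF.

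Each gene is protein-coding in the annotation. In the GRCm38 build with the GENCODE M21 annotation, Brd9 (ENSMUSG00000057649) covers chr13:73937811-73960895 on the plus strand and Brd7 (ENSMUSG00000031660) covers chr8:88331039-88362194 on the minus strand. Bicra (ENSMUSG00000070808) is at chr7:15970672-16047921 and Bicral (ENSMUSG00000036568) at chr17:46798120-46858482, both on the minus strand. Bcl7a (ENSMUSG00000029438) is at chr5:123343834-123374992, plus strand, with the models Gm23458 and 5830487J09Rik on the same strand inside or beside it, so a part of its counts could belong to them. Bcl7b (ENSMUSG00000029681) is at chr5:135168283-135181855, plus strand, Bcl7c (ENSMUSG00000030814) at chr7:127661456-127708933, minus strand, and Actl6a (ENSMUSG00000027671) at chr3:32706298-32726973, plus strand. The transcript Brd9-201 has 16 exons, and exon 6, the last of the exons flanked by loxP in this allele, ends 18841 bases of genome before the transcript does. Reads of the 3′ kit come from near that end, so they count Brd9 transcripts without reporting on the flanked exons.

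The promoters of the paralogue pair are shown because the levels of Brd9 and Brd7 followed different orders across the progenitors. Each line is the 150 bases before a RefSeq start in GRCm38.p6, written 5′ to 3′ on the gene's own strand, at chr13:73937661-73937810 for Brd9 and at chr8:88362173-88362322 for Brd7. Brd9 has a second RefSeq start further downstream, and the upstream one is used here. Capitals mark 2 motifs searched on both strands, the GC box CCCCGCCC (other strand GGGCGGGG) bound by SP and KLF factors and the ETS core CCGGAAG (other strand CTTCCGG).
Brd9: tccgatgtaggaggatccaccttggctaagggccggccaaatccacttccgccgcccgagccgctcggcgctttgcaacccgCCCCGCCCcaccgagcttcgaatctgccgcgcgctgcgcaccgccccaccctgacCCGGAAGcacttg
Brd7: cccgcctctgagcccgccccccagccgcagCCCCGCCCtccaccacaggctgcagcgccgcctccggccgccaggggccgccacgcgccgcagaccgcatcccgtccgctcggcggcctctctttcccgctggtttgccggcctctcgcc
Both hold a GC box, which began 68 bases before the start in Brd9 and 120 bases before it in Brd7. Of the pair only Brd9 holds the ETS core, 13 bases before the start. Counted from the second Brd9 start, the GC box lies 85 and the ETS core 30 bases before it, and that window has 39 CpG. Over the full window of 250 bases before and 50 bases after the start, the GC box was in 17.6% and the ETS core in 8.86% of 32851 RefSeq windows. The Brd9 window has 40 CpG and the Brd7 window 31, against a median of 7 over all windows. Windows were read for 5 of the 9 genes. Among the other 3, the Bcl7c window held a GC box, and the Bcl7b and Actl6a windows held neither motif. A match is only a run of letters and no evidence of binding.

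The library has 8817 barcodes, of which 7645 passed the study's limits on UMIs, genes and mitochondrial share, with a median of 18696 UMIs per cell (range 1592 to 49991). A UMI is a molecular tag that counts each captured transcript once. Kit, the receptor used for the sort, was detected in 65.8% of cells after filtering, and the T cell gene Cd3e had 5 UMIs in all. Cells were put in 10 gates by the summed UMIs of marker panels per 10000 UMIs of the cell, with no use of the 9 genes: 911 stem-like (Hlf, Mecom, Procr), 384 multipotent-like (Flt3, Satb1), 59 lymphoid-like (Ebf1, Rag1), 586 granulocyte-monocyte-like (Mpo, Ctsg), 700 neutrophil-like (S100a8, Cebpe), 1796 monocyte-like (F13a1, Csf1r), 233 dendritic-like (Batf3, Xcr1), 378 basophil or mast-like (Prss34, Mcpt8), 523 megakaryocyte-like (Pf4, Treml1) and 1281 erythroid-like cells (Ermap, Car1). In 7 gates every gene of the gate's own panel was at least 1.5-fold above the remaining cells, against 9 of 10 in the dendritic-like, 7 of 8 in the megakaryocyte-like and 5 of 8 in the neutrophil-like gate. The gates were set on these panels, so this is no independent support. The granulocyte-monocyte panel was higher in neutrophil-like cells (43970 against 21278 CPM). The monocyte panel was higher in dendritic-like (3952 against 2777) and the multipotent panel in lymphoid-like cells (1219 against 917). Each other gate's panel was highest in its own gate. The leading genes of the multipotent-like gate include the immunoglobulin gene Ighg2c and the lymphoid gene Dntt, and 25.7% of the neutrophil-like cells lay within 1.5 times their cut-off. The gates differ in depth, from a median of 8646 UMIs per stem-like cell to 32227 per erythroid-like cell, and in the share of cells above a cut-off on cell cycle genes, from 15.1% to 90.8% in the same pair of gates. Levels below are UMIs of a gene summed over the cells of a gate per 1000000 UMIs of that gate (CPM), with exact 95% Poisson intervals. Free RNA in the droplets was gauged from genes of a single gate and not subtracted. The erythroid gene Car1 stood at 2910 CPM in erythroid-like cells and at 27.9 to 65.6 CPM in the other 9 gates, and the basophil and mast cell protease gene Prss34 at 17500 CPM in its own gate and at 6.13 to 13.6 CPM elsewhere, which is at least 44.3-fold lower for Car1 and at least 1284-fold lower for Prss34.

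All 9 genes were measured in every gate. Over all cells kept, Bcl7c had 21299 UMIs, Actl6a 17353, Brd7 15443, Ss18 5957, Bcl7b 5131, Bcl7a 4991, Brd9 4598, Bicral 2090 and Bicra 1133. Each passed the minimum of 500 UMIs set for the genes tested, of which there are 10172. The 3′ kit tags a transcript once whatever its length, so CPM was not divided by length, but genes may still differ in how well their 3′ end is captured. Across the 10 gates the median spread of the genes was below that of all genes tested, but Bicra, Bcl7a and Bicral varied more than the median gene. The SD over gates of log2(CPM + 1) had a median of 0.34 over the 9 genes, against 0.48 over all genes tested and 0.45 over the 7616 genes whose total lies between those of Bicra and Bcl7c. Bcl7c varied least, with an SD of 0.18 (3.30% of genes tested were lower), and Bicral most, with an SD of 0.55 (59.1% of genes tested were lower). The SD was 0.51 for Bicra (54.3% lower) and 0.52 for Bcl7a (55.7% lower).

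**Figure D1:**
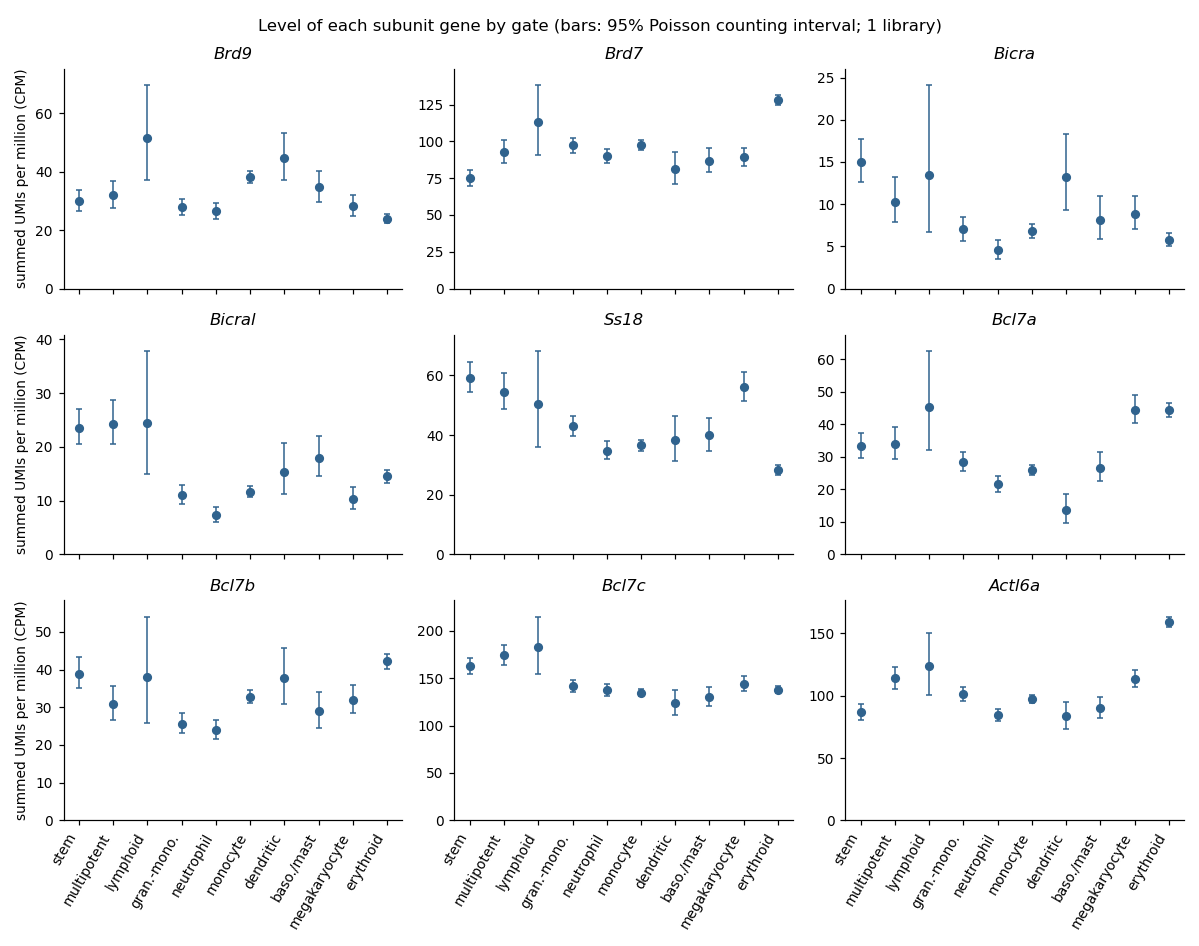
Level of each gene (vertical axis, summed UMIs per 1000000, CPM) in the 10 gates (horizontal axis), 1 panel per gene; points are gate sums of 1 library and bars are exact 95% Poisson intervals. Brd9 was lowest and Brd7 and Actl6a were highest in the erythroid-like cells (23.8, 128 and 159 CPM), and Bicra and Bicral were lowest in the neutrophil-like cells (4.53 and 7.37 CPM).

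Brd9, the bromodomain subunit that defines the non-canonical complex, was highest in lymphoid-like, dendritic-like and monocyte-like cells and lowest in erythroid-like cells. Its level was 51.5 CPM in lymphoid-like cells (37.1 to 69.6, from only 42 UMIs), 44.5 CPM in dendritic-like cells (37.0 to 53.0) and 38.0 CPM in monocyte-like cells (36.1 to 40.0). It was 34.6 CPM in basophil or mast-like, 31.9 CPM in multipotent-like and 29.9 CPM in stem-like cells (26.5 to 33.7). The low end held 28.2 CPM in megakaryocyte-like, 27.9 CPM in granulocyte-monocyte-like, 26.4 CPM in neutrophil-like and 23.8 CPM in erythroid-like cells (22.3 to 25.4). The highest level was 2.16 times the lowest (1.55 to 2.95), and no 2 neighbours in this order differed beyond counting error. Against the stem-like cells, Brd9 was 1.72-fold higher in lymphoid-like cells (1.21 to 2.39, exact 95% interval of the ratio), 1.49-fold in dendritic-like cells (1.19 to 1.85) and 1.27-fold in monocyte-like cells (1.12 to 1.45), and the erythroid-like ratio was 0.796 (0.694 to 0.915). Brd9 passed the 1.5-fold rule in the lymphoid-like gate alone, but the dendritic-like ratio sat at the edge of the rule and passed it without doublet calls (1.59), under a stricter cell filter (1.55), with the gate cut-offs divided by 1.5 (1.52) and, barely, over all barcodes. With the cut-offs multiplied by 1.5 it did not pass (1.43).

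Shares of cells were compared at equal depth. With each cell thinned to 5000 UMIs, a Brd9 UMI was found in 21.0% of dendritic-like cells (15.9% to 26.8%, exact binomial interval), 18.0% of monocyte-like cells (16.2% to 19.8%), 17.2% of lymphoid-like cells (8.59% to 29.4%), 15.2% of basophil or mast-like, 14.2% of stem-like, 12.3% of multipotent-like and 11.0% of erythroid-like cells (9.32% to 12.8%). A second random draw gave 16.2% in dendritic-like, 16.7% in monocyte-like, 19.0% in lymphoid-like, 17.4% in basophil or mast-like, 15.0% in multipotent-like and 9.49% in erythroid-like cells. The erythroid-like share was the lowest in both draws, while the gate with the highest share changed with the draw. Thinning left out 99 cells of fewer UMIs, 16 of them stem-like and 6 erythroid-like. Without thinning the share was 46.2% in the deep erythroid-like cells and 24.3% in the shallow stem-like cells, an order that goes against the CPM and matches that of depth. No gate is known to lack these subunits, so genes of a single gate stand in for free RNA. Before thinning Prss34 had a UMI in 22.2% of erythroid-like and 8.01% of stem-like cells, and Car1 in 47.6% of stem-like and 51.9% of dendritic-like cells. Car1 had 114336 UMIs in erythroid-like cells alone, against 4598 of Brd9 over all cells kept. These shares therefore do not measure free Brd9 RNA.

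Brd7, the paralogue in PBAF, had another pattern. Its level was 128 CPM in erythroid-like cells (124 to 132), 113 CPM in lymphoid-like cells (91.0 to 138), 97.5 CPM in monocyte-like, 97.3 CPM in granulocyte-monocyte-like and 92.8 CPM in multipotent-like cells. It was 90.1 CPM in neutrophil-like, 89.5 CPM in megakaryocyte-like, 86.8 CPM in basophil or mast-like and 81.4 CPM in dendritic-like cells, and lowest in stem-like cells with 74.9 CPM (69.3 to 80.8). Brd7 was thus above the stem-like level in all 9 other gates, beyond counting error in each but the dendritic-like gate (ratio 1.09, 0.931 to 1.27). It passed the 1.5-fold rule in erythroid-like cells, at 1.71-fold (1.58 to 1.85), and in lymphoid-like cells, at 1.51-fold (1.20 to 1.88). The lymphoid-like call was lost with the gate cut-offs multiplied by 1.5 (1.35) or divided by 1.5 (1.47) and among non-cycling cells (1.14, against 1.62 among cycling ones).

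The erythroid-like ratio of Brd7 was 1.54 among cycling cells alone and 1.57 among non-cycling cells alone, so it was nearly as large within either class. For Brd9 the same ratio was 0.797 among cycling and 0.401 among non-cycling cells. The latter rests on only 18 Brd9 UMIs in 118 non-cycling erythroid-like cells. The dendritic-like ratio of Brd9 was 1.88 among cycling but 0.847 among non-cycling cells, which is on the other side of 1. In monocyte-like cells the Brd9 ratio was 1.30 among cycling and 0.956 among non-cycling cells, and in lymphoid-like cells 1.73 and 1.67. By point value, Brd9 was thus above its stem-like level among cycling but not among non-cycling dendritic-like and monocyte-like cells. In lymphoid-like cells its point value was above in both classes. Those classes held only 26 cycling and 33 non-cycling lymphoid-like cells, with 42 Brd9 UMIs in all, and no interval is given for these ratios. These splits were chosen after the data had been seen.

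As a share of the UMIs of the pair, Brd9 stood at 28.6% in stem-like cells (25.7% to 31.6%, 269 of 942 UMIs). It was 35.3% in dendritic-like (30.3% to 40.6%), 31.3% in lymphoid-like, 28.5% in basophil or mast-like and 28.1% in monocyte-like cells (26.9% to 29.3%). It was 25.6% in multipotent-like, 24.0% in megakaryocyte-like, 22.7% in neutrophil-like and 22.3% in granulocyte-monocyte-like cells (20.3% to 24.3%). In erythroid-like cells it was 15.7% (14.8% to 16.6%, 936 of 5964 UMIs), an interval below that of each other gate. Both genes contribute to the low erythroid-like share, since Brd9 was at its lowest and Brd7 at its highest level there. Among non-cycling cells alone the share was 9.52% in erythroid-like (from only 18 Brd9 UMIs), 20.3% in neutrophil-like, 23.8% in monocyte-like and 24.8% in dendritic-like cells. A share of a pair does not depend on depth or on how CPM is scaled.

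**Figure D2:**
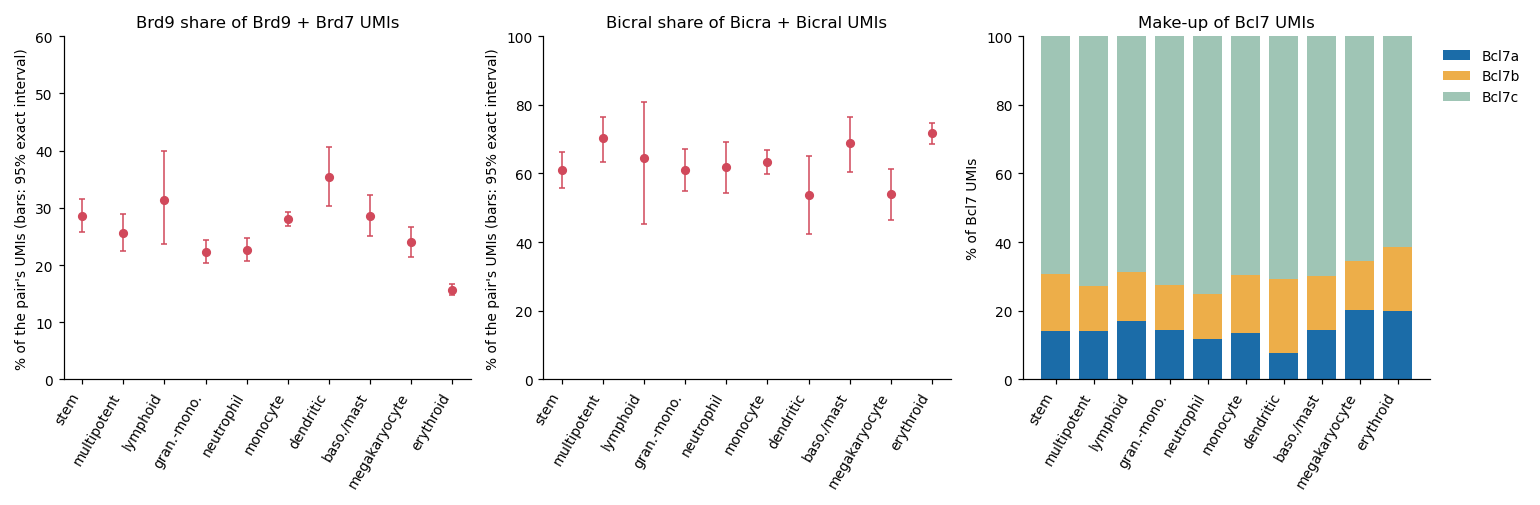
Share of a gene in the UMIs of its family (vertical axes, %) by gate (horizontal axes): Brd9 within Brd9 plus Brd7 (left) and Bicral within Bicra plus Bicral (middle), with exact 95% binomial bars, and the make-up of the Bcl7 UMIs as stacked bars (right). The Brd9 share was 35.3% in dendritic-like and 15.7% in erythroid-like cells, and Bcl7a made up 7.77% of Bcl7 UMIs in dendritic-like and 20.1% in megakaryocyte-like cells.

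Bicra and Bicral, the mutually exclusive scaffold subunits found only in the non-canonical complex, were highest in stem-like and lymphoid-like cells and lowest in neutrophil-like cells. Bicra was 15.0 CPM in stem-like cells (12.6 to 17.8), 13.5 CPM in lymphoid-like (11 UMIs), 13.3 CPM in dendritic-like and 10.3 CPM in multipotent-like cells, and between 4.53 and 8.86 CPM in the other 6 gates. Bicral was 24.5 CPM in lymphoid-like, 24.3 CPM in multipotent-like and 23.6 CPM in stem-like cells (20.5 to 27.0). It was 18.0 CPM in basophil or mast-like, 15.4 CPM in dendritic-like, 14.5 CPM in erythroid-like, 11.7 CPM in monocyte-like, 11.0 CPM in granulocyte-monocyte-like, 10.4 CPM in megakaryocyte-like and 7.37 CPM in neutrophil-like cells (6.05 to 8.89). In this order the steps from stem-like to basophil or mast-like, from erythroid-like to monocyte-like and from megakaryocyte-like to neutrophil-like cells were beyond counting error, while no step of the Bicra order was. The ratio of the highest to the lowest gate was 3.32 (2.46 to 4.51) for Bicra and 3.33 (1.96 to 5.40) for Bicral.

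Relative to stem-like cells, the neutrophil-like ratios were 0.302 for Bicra (0.222 to 0.407) and 0.312 for Bicral (0.246 to 0.395). In granulocyte-monocyte-like cells they were 0.466 and 0.467, and in monocyte-like cells 0.451 and 0.496. Megakaryocyte-like cells had 0.590 for Bicra and 0.439 for Bicral (0.342 to 0.561), where 7.13% of all genes tested had a lower ratio than Bicral. In erythroid-like cells they were 0.381 (0.307 to 0.475) and 0.616 (0.525 to 0.725). Among the few non-cycling erythroid-like cells, 118 in number, the Bicra ratio was 0.682, no longer past 1.5-fold, and the Bicral ratio 1.19, on the other side of 1. Those cells held only 16 Bicra and 45 Bicral UMIs, and no interval is given for either ratio. In neutrophil-like cells the Bicral ratio was 0.189 among non-cycling and 0.453 among cycling cells. The basophil or mast-like gate split the pair at the 1.5-fold rule, with 0.541 for Bicra and 0.762 for Bicral. Within the pair, Bicral made up 61.1% of UMIs in stem-like (55.7% to 66.3%), 71.7% in erythroid-like (68.5% to 74.8%), 53.9% in megakaryocyte-like (46.3% to 61.3%) and 53.8% in dendritic-like cells (42.2% to 65.0%). The erythroid-like interval lies above those of the stem-like, monocyte-like (63.3%, 59.7% to 66.9%) and megakaryocyte-like cells.

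Ss18, a shared subunit known for its fusion in synovial sarcoma, is at chr18:14624198-14682914 on the minus strand (ENSMUSG00000037013), where the small RNA gene model Gm24924 lies on the same strand. Its level was within counting error of the stem-like one in the multipotent-like, lymphoid-like and megakaryocyte-like gates, and below it beyond counting error in the others. It was 59.2 CPM in stem-like (54.3 to 64.4), 56.2 CPM in megakaryocyte-like (51.5 to 61.2), 54.5 CPM in multipotent-like and 50.3 CPM in lymphoid-like cells. It lay between 34.8 and 42.9 CPM in the 5 granulocytic, monocytic, dendritic and basophil gates and was 28.3 CPM in erythroid-like cells (26.7 to 30.0). The last step, from neutrophil-like to erythroid-like cells, was beyond counting error. The erythroid-like ratio over stem-like cells was 0.479 (0.431 to 0.532) in all cells and 0.470 among cycling ones, but 0.977 among non-cycling ones. Divided by the ratio of the median gene tested, the Ss18 ratio was 0.905 in granulocyte-monocyte-like, 0.877 in neutrophil-like, 0.754 in monocyte-like and 0.579 in erythroid-like cells.

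The Bcl7 genes, 3 paralogues that code for small subunits, differed from each other. Bcl7a was 45.4 CPM in lymphoid-like, 44.4 CPM in megakaryocyte-like (40.3 to 48.9) and 44.3 CPM in erythroid-like cells (42.3 to 46.5). It was 33.9 CPM in multipotent-like, 33.4 CPM in stem-like, 28.5 CPM in granulocyte-monocyte-like, 26.7 CPM in basophil or mast-like, 25.9 CPM in monocyte-like and 21.6 CPM in neutrophil-like cells. In dendritic-like cells it was 13.6 CPM (9.64 to 18.7, 38 UMIs), or 0.408 of the stem-like level (0.283 to 0.574). Bcl7a thus had the megakaryocyte-like and erythroid-like gates above the stem-like one, with a ratio of 1.33 in each, and the dendritic-like gate lowest by a step beyond counting error. Bcl7b ranged from 42.1 CPM in erythroid-like (40.1 to 44.2) and 38.9 CPM in stem-like cells to 23.9 CPM in neutrophil-like cells (21.5 to 26.6). Bcl7c, the most abundant of the 9 genes by UMIs, lay between 183 CPM in lymphoid-like (155 to 215) and 124 CPM in dendritic-like cells (111 to 138), and its step from stem-like (163 CPM) to megakaryocyte-like cells (144 CPM) was beyond counting error. Bcl7c made up 75.1% of the UMIs of the family in neutrophil-like and 61.4% in erythroid-like cells (60.4% to 62.4%), and Bcl7b 12.9% in multipotent-like and 21.5% in dendritic-like cells (17.9% to 25.4%).

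Actl6a, the actin-related subunit of stem and progenitor cells whose neuronal counterpart is Actl6b, was 159 CPM in erythroid-like cells (155 to 163), the highest by a step beyond counting error. It was 124 CPM in lymphoid-like, 114 CPM in multipotent-like and 114 CPM in megakaryocyte-like cells, and between 83.9 and 101 CPM in the other 6 gates, with 86.9 CPM in stem-like cells (80.9 to 93.2). The erythroid-like ratio over stem-like cells was 1.83 (1.70 to 1.98). Within cycling cells alone it was 1.35 and within non-cycling cells alone 1.31, so the ratio was smaller within either class and no longer past 1.5-fold.

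The 9 genes were then counted by the 1.5-fold rule, with the share of all genes tested that passed it in brackets. In no gate did a count exceed by a whole gene the number that this share gives for 9 genes. In multipotent-like cells 0 were higher (9.6% of genes tested were) and 0 lower (17.5%). In lymphoid-like cells 2 were higher, Brd9 and Brd7 (13.9%), and 0 lower (27.2%). In granulocyte-monocyte-like cells 0 were higher (14.7%) and 3 lower, Bicra, Bicral and Bcl7b (37.6%). In neutrophil-like cells 0 were higher (12.9%) and 5 lower, Bicra, Bicral, Ss18, Bcl7a and Bcl7b (49.7%). In monocyte-like cells 0 were higher (16.1%) and 3 lower, Bicra, Bicral and Ss18 (37.0%). In dendritic-like cells 0 were higher (15.6%) and 3 lower, Bicral, Ss18 and Bcl7a (35.1%). In basophil or mast-like cells 0 were higher (13.1%) and 1 lower, Bicra (30.0%). In megakaryocyte-like cells 0 were higher (10.1%) and 2 lower, Bicra and Bicral (17.8%). In erythroid-like cells 2 were higher, Brd7 and Actl6a (21.5%), and 3 lower, Bicra, Bicral and Ss18 (40.3%).

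The background itself was shifted. The median gene tested had a ratio over stem-like cells of 0.671 in neutrophil-like, 0.802 in granulocyte-monocyte-like, 0.818 in monocyte-like, 0.827 in erythroid-like, 0.832 in dendritic-like and 0.854 in basophil or mast-like cells, and of 0.922 to 0.974 in the other 3 gates. Counts relative to that median gene are given with the share of all genes tested under the same scaling. The neutrophil-like count became 1 higher (Brd7, 29.3% of genes tested) and 2 lower (Bicra and Bicral, 29.6%). The monocyte-like count became 2 higher (Brd9 and Brd7, 24.7%) and 2 lower (Bicra and Bicral, 26.4%). The granulocyte-monocyte-like count became 1 higher (Brd7, 24.7%) and 2 lower (Bicra and Bicral, 25.5%), and the dendritic-like count 1 higher (Brd9, 23.2%) and 1 lower (Bcl7a, 26.3%). The lymphoid-like count became 3 higher with Actl6a (17.2%), and the erythroid-like count 3 higher with Bcl7a (29.9%) and 2 lower (Bicra and Ss18, 32.9%). Only the lymphoid-like count exceeded by a whole gene what its share gives for 9 genes. The low neutrophil-like ratios of Ss18, Bcl7a and Bcl7b (0.588, 0.646 and 0.615) were 0.877, 0.963 and 0.916 of the median gene's, so they lay near the middle of the genes tested, while those of Bicra and Bicral stayed at 0.450 and 0.466. Relative to the median gene Brd9 was 1.79 in dendritic-like, 1.55 in monocyte-like and 1.32 in neutrophil-like cells, where its plain ratio was 0.883 and on the other side of 1. The 7616 genes of matched total gave much the same background, with 48.6% lower in neutrophil-like cells and 21.0% higher and 37.3% lower in erythroid-like cells. Among these genes, 84.8% had a lower dendritic-like ratio than Brd9, 83.5% a lower erythroid-like ratio than Brd7 and 85.9% than Actl6a. At the other end, 12.8% had a lower neutrophil-like ratio than Bicra, 13.5% a lower dendritic-like ratio than Bcl7a and 5.29% a lower megakaryocyte-like ratio than Bicral.

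**Figure D3:**
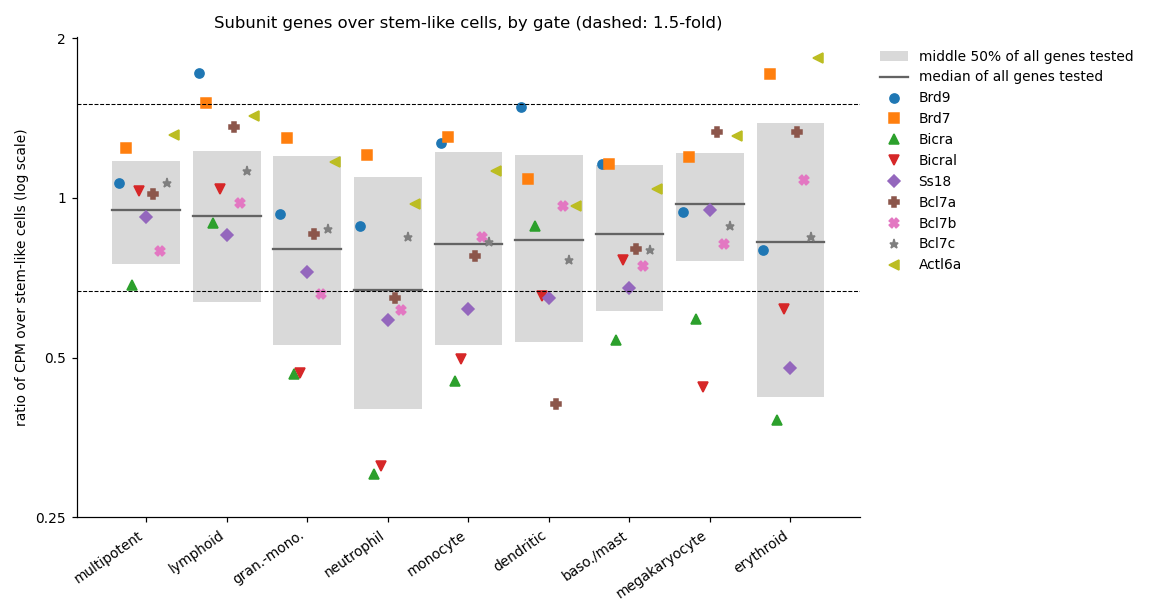
Ratio of each gene's CPM over the stem-like cells (vertical axis, log scale) in the 9 other gates (horizontal axis). Symbols are the 9 genes, grey boxes the middle 50% and grey lines the median of the 10172 genes tested, and dashed lines mark 1.5-fold either way. Bicra and Bicral lie below the grey box in neutrophil-like cells (0.302 and 0.312), and Brd7 and Actl6a lie above it in erythroid-like cells (1.71 and 1.83).

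Splitting each gate by the cell cycle panel left 9 gates with at least 50 cells of each kind. Brd9 was higher in the cycling cells of all 9 gates by its point value, from 1.03 in stem-like to 2.27 in dendritic-like cells, and beyond counting error in 3. In dendritic-like cells it was 57.2 CPM in the 123 cycling and 25.2 CPM in the 110 non-cycling cells, a ratio of 2.27 (1.48 to 3.60). In erythroid-like cells it was 24.3 and 11.9 CPM, a ratio of 2.04 (1.28 to 3.45), and in monocyte-like cells 39.6 and 28.4 CPM, a ratio of 1.39 (1.18 to 1.65). In these 3 gates 90.3% to 91.8% of the genes tested had a lower ratio. Brd7 ratios lay between 0.938 and 1.22, beyond counting error in the multipotent-like gate alone. In stem-like cells the Brd7 ratio (1.16) was above that of Brd9. The intervals of Brd9 and Brd7 overlapped in every gate but the dendritic-like one, where that of Brd7 was 0.840 to 1.47. Cycling cells are also deeper, with medians of 13083 against 9062 UMIs in dendritic-like and 33360 against 10626.5 UMIs in erythroid-like cells, and the part of depth in these ratios was not tested.

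Actl6a was higher in cycling cells beyond counting error in 5 of the 9 gates. The ratio was 1.62 in erythroid-like (1.38 to 1.91), 1.56 in stem-like (1.34 to 1.82), 1.49 in dendritic-like, 1.32 in multipotent-like and 1.26 in megakaryocyte-like cells, and 0.998 to 1.22 in the other 4. Bcl7c was higher beyond counting error in stem-like (1.27, 1.13 to 1.42) and multipotent-like cells (1.16, 1.02 to 1.33). Bicra, Bicral and Ss18 were lower in cycling erythroid-like cells, with ratios of 0.522 (0.314 to 0.930), 0.467 (0.344 to 0.648) and 0.465 (0.374 to 0.586), where the median gene had 0.908. Bicral was also lower in cycling monocyte-like cells (0.737, 0.579 to 0.947) and higher in cycling neutrophil-like cells (1.81, 1.12 to 3.04). The remaining ratios beyond counting error were those of Ss18 in dendritic-like cells (1.78), of Bcl7a in multipotent-like (1.41) and monocyte-like cells (0.785), and of Brd7 above. No Bcl7b ratio was beyond counting error. Under the alternatives, the number of gates with a higher level beyond counting error stayed within 1.5 times its main value for Brd9 and Actl6a. For each other gene, Bcl7a, Bcl7c and Brd7 among them, it left that range under some setting.

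**Figure D4:**
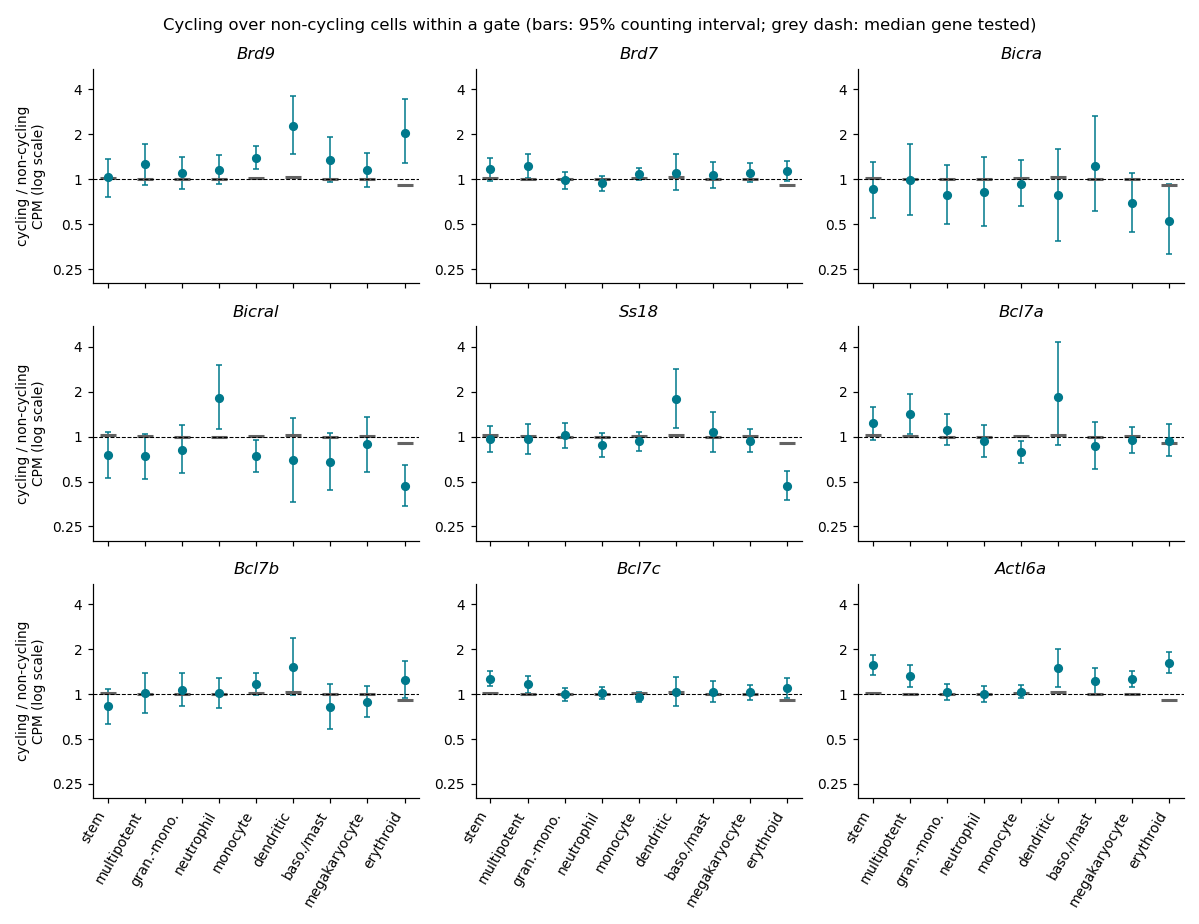
Ratio of CPM in cycling over non-cycling cells of a gate (vertical axis, log scale) for the 9 gates with at least 50 cells of each kind (horizontal axis), 1 panel per gene; bars are exact 95% counting intervals, grey dashes the median gene tested and the dashed line a ratio of 1. Brd9 lies at or above 1 in each gate, up to 2.27 in dendritic-like cells, and Ss18 and Bicral lie at 0.465 and 0.467 in erythroid-like cells.

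Over the 10 gates the profiles of the genes were compared by Pearson's r of log2(CPM + 1), as a description of 10 points that share 1 library. Brd7 and Actl6a were the most alike (r = 0.871), followed by Bicra and Bicral (r = 0.779) and by Bcl7a and Actl6a (r = 0.771). Brd9 and Brd7 had r = -0.076. Brd9 was closest to its scaffold partner Bicra among the 8 other genes (r = 0.622). The 5 genes of all tested with the profile most like that of Brd9 were Evl (r = 0.977), Rab3ip (0.966), Zfp513 (0.943), Atf6 (0.939) and Tmem229b (0.931). All 5 were lowest in erythroid-like cells, and all but Atf6, whose highest gate was the dendritic-like one, were highest in lymphoid-like cells.

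Of 20 further SWI/SNF genes, 16 passed the minimum, while Smarcd3, Dpf1, Ss18l1 and Actl6b had 51, 60, 312 and 0 UMIs. In neutrophil-like cells 0 of the 16 were higher (12.9% of all genes tested were) and 11 lower (49.7%), with a median ratio of 0.534. The lowest were Smarca2, the alternative ATPase (0.108), and Arid1b, a canonical BAF subunit (0.208), and the highest were Smarce1 (0.989) and the PBAF subunit Phf10 (1.22). In erythroid-like cells 2 were higher (21.5%) and 5 lower (40.3%), with Smarca2 at 0.0642 and Arid1b at 0.167 at one end and Phf10 at 4.97 (4.47 to 5.55) and Dpf3 at 8.92 (4.65 to 19.7, of 526 UMIs in all) at the other. The PBAF subunits did not share a direction there, with Pbrm1 at 1.16 (1.09 to 1.22) and Arid2 at 0.856 (0.782 to 0.938) beside Phf10 and Brd7. In the other 7 gates 0 to 3 of the 16 were higher (9.6% to 16.1% of all genes tested) and 1 to 7 lower (17.5% to 37.6%), with Smarca2 lowest or next to lowest in each. Brd8, a bromodomain gene outside SWI/SNF, had an erythroid-like ratio of 1.04 (0.958 to 1.12) and a neutrophil-like ratio of 0.584, below the 0.883 of Brd9.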

How the data were processed

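The authors made the counts from a 10x Genomics 3′ v3.1 library with Cell Ranger 6.0.2 on mm10 and deposited whole UMI counts per gene and barcode, not normalised. The limits of the study were applied to cells, with UMIs above 1000 and below 50000, genes above 1000 and below 6500, and a mitochondrial share below 7%. The 9 genes, lists and questions were chosen with earlier results of these data known, and gate cut-offs were set on marker genes alone after seeing them.

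A committed gate needed 3 panel genes and its cut-off in UMIs per 10000 (lymphoid and monocyte 10, neutrophil 6, dendritic, megakaryocyte and erythroid 12, basophil or mast 20). Cells past several of these stayed ungated, except that dendritic and lymphoid panels took precedence over the monocyte panel. The granulocyte-monocyte (50), stem (4) and multipotent (3) gates followed in that order. Eosinophil, T or NK and mature B or plasma cells were kept out, which left 6851 gated cells. Cells past 10 cycling-panel UMIs per 10000 were called cycling. Scrublet (scanpy 1.11.5) marked 3.47% of cells as doublets, left out only in an alternative.

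No test was run, since 1 library has no replicates. Ratios have exact conditional binomial intervals and shares exact Clopper-Pearson intervals (SciPy 1.17.1), with the ratio and its interval tested on simulated data, and ratios were called past 1.5-fold. Named genes were the 9 genes, the 2 highest and 2 lowest other SWI/SNF genes in a contrast, and the 5 genes with the highest r to Brd9.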

Additional observations from a re-analysis of the deposited data

How the results depend on the processing

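Counts of genes past 1.5-fold over stem-like cells were recomputed under 10 alternatives in 9 gates. At a 2-fold threshold the counts, with the share of all genes tested past 2-fold either way, were 0 in lymphoid-like (23.9%), 2 in neutrophil-like (41.8%), 1 in dendritic-like (32.3%), 0 in basophil or mast-like (23.7%), 1 in megakaryocyte-like (12.8%) and 2 in erythroid-like cells (42.1%). Relative to the median gene the neutrophil-like count was 3. Gate cut-offs divided by 1.5 gave 1 in lymphoid-like and 1 in megakaryocyte-like cells, a stricter cell filter (at least 5000 UMIs, under 5% mitochondrial) gave 1 in megakaryocyte-like cells, and CPM without mitochondrial, ribosomal protein and haemoglobin UMIs gave 2 in basophil or mast-like cells. The share of all genes tested was not recomputed under these settings, so the counts show stability only. The counts stayed within 1.5 times the main count in all 9 gates with all barcodes, without doublet calls and with cut-offs multiplied by 1.5, although the genes behind the lymphoid-like count of 2 changed in the last of these, where Brd7 (1.35) gave way to Actl6a (1.65). No paired analysis was possible because there is 1 library.

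The splits by cycling were added after seeing the data. Non-cycling cells alone gave counts of 1 in lymphoid-like, 2 in basophil or mast-like, 1 in megakaryocyte-like and 2 in erythroid-like cells, and cycling cells alone gave 2 in basophil or mast-like and 3 in erythroid-like cells. The share of all genes tested was not computed within these splits, so the counts have no background beside them. The erythroid-like Bicral ratio moved to 1.19 among non-cycling cells, from 45 UMIs and with no interval given. Among non-cycling cells the Brd9 share of the pair was 20.3% in neutrophil-like, 23.8% in monocyte-like, 24.8% in dendritic-like and 9.52% in erythroid-like cells (18 Brd9 UMIs). The Bicral share was 47.8% in neutrophil-like and 67.8% in monocyte-like cells. The Bcl7a share was 15.9% in monocyte-like and 22.7% in erythroid-like cells, the Bcl7b share 14.4% and 16.6% in the same gates, and the Bcl7c share 76.3% in dendritic-like cells. Among cycling stem-like cells the Bcl7b share was 12.7% and the Bcl7c share 72.8%. The cause of these changes was not tested. No family share left its main interval under the other alternatives. The number of gene and gate pairs past 1.5-fold between cycling and non-cycling cells was 11 in the main setting and 8 to 14 in the 8 alternatives run. The matching share of all genes tested was not computed, so this number cannot be read as more or less than background. Values resting on few UMIs, such as those of the 59 lymphoid-like cells, are the least certain.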

Other observations

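Cells outside the gates gave further values for the 9 genes. In 55 cells of the eosinophil panel Brd9 was 43.2 CPM and Brd7 80.8 CPM, close to the dendritic-like pair of 44.5 and 81.4 CPM, while Bcl7a was 32.0 CPM against 13.6 CPM. In 17 cells of the mature B or plasma panel, with a median of 16734 UMIs, Bicra had 0 UMIs, Brd9 and Brd7 each 20.2 CPM and Bcl7c 50.4 CPM. In 514 cells of no panel Brd9 was 25.2 CPM and Ss18 57.9 CPM, and in 208 cells past several committed panels they were 30.1 and 39.3 CPM.

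Barcodes that the cell filter left out were of 3 kinds. The 213 barcodes with the most UMIs or genes had 28.4 CPM of Brd9 and 126 CPM of Brd7. The 385 left out for mitochondrial share alone had 36.9 CPM of Brd9, 95.6 CPM of Brd7 and 92.5 CPM of Bcl7c. The 574 with few UMIs or genes had 29.6 CPM of Bcl7c, below the 124 CPM of the lowest gate, but 29.6 CPM of Brd9, near its level over all cells kept of 30.3 CPM.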
